A study of Mus musculus with 24 samples.

Results

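Genes that take up, activate and burn fatty acids, and genes that use ketone bodies, were followed in the tibialis anterior, a muscle of the front of the lower leg. A set of 48 genes was matched to the microarray by gene symbol, and 40 of them had at least 1 probe under that symbol, with 48 probes in all. The platform writes the symbols in capitals, such as BDH1, PPARGC1B and MGLL, and mouse spelling is used below. The whole array named 17742 genes on its 26423 probes. Total RNA of 8 mice aged 6 weeks, on a mixed C57BL6/J;129S1/SvImJ background, was labelled with Cy5 and hybridised on 24 arrays of 1 colour, 3 for each animal. The 4 control mice carried Myf6 cre, 1 floxed Hira allele and 1 intact one (Myf6 cre/+; Hira flox/+). The 4 mice labelled Hira CKO carried Myf6 cre, 1 floxed allele and 1 null allele (Myf6 cre/+; Hira flox/-). Cre was thus present in both groups, under a gene that is active in muscle fibres, and cells outside the fibres also differed between the groups by the null allele. HIRA deposits the histone variant H3.3. The animal was the replicate, and its 3 arrays were repeats.

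Muscle fibres draw long-chain fatty acids from the blood, join them to coenzyme A, pass them into mitochondria as carnitine esters and shorten them stepwise by beta oxidation. Ketone bodies, made by the liver from fatty acids, are used in the same organelle: hydroxybutyrate is oxidised to acetoacetate, which is joined to coenzyme A and split into acetyl-CoA. Many of these genes are driven by the PPAR and ERR nuclear receptors with their PGC-1 coactivators. Of the genes sought, Fabp3, Cpt1b, Hadhb, Etfb, Mlycd and Acacb were not analysed here, since no probe carried their symbol. The entry of fatty acids into mitochondria was therefore read through Cpt1a, the liver-type form, and not through Cpt1b, the form of muscle. Eci1 and Eci2 were found under older symbols and are given apart from the counts.

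Intensities are on the authors' normalized linear scale, on which array medians lay between 431.5 and 433.5. Differences are on the log2(intensity + 16) scale, Hira CKO minus control, so that a positive value is higher in Hira CKO. A probe was called when its limma p, adjusted over all 26423 probes, was under 0.05. Of 9 muscle fibre markers 5 were measured, and their summed intensity was 982847 to 1159390 in control animals and 953051 to 1003160 in Hira CKO. Ckm (creatine kinase) and Acta1 (skeletal actin) among them fell by 0.28 and 0.55 log2 (limma adjusted p 0.0442 and 0.00199). The other markers, Tnnt3, Pvalb and Mb, differed by −0.01, −0.05 and 0.02 log2 and were not called. Of the 5, 2 (40%) were thus called lower, against 10.2% of all genes at the brightest probe. The probe of Hira itself was at 495 ± 48.9 in controls and 558 ± 38.9 in Hira CKO (SD, n = 4), with a limma adjusted p of 0.193. No source used here places that probe inside or outside the floxed stretch, and it therefore does not check the labels. In whole muscle, fewer cells of a type and less RNA per cell cannot be told apart.

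In mice labelled Hira CKO, Bdh1 and Bdh2 of ketone body use rose, Bdh1 3.93-fold at its 1 probe and Bdh2 by 1.34-fold and 1.44-fold at its 2 probes. The coactivator gene Ppargc1b and the monoglyceride lipase gene Mgll each fell 3.05-fold. No gene of fatty acid uptake, activation, carnitine transfer or beta oxidation passed the threshold in the fit described above. In some other settings Slc27a4, Acsl4, Acsl5 and Cpt1a were called lower and Etfdh higher. In all, 6 of the 40 genes (15%) were called at any probe, against 23.4% of all named genes, a lower share. By probe, 8 of 48 (16.7%) were called, 4 higher and 4 lower, against 20.6% of all probes, 10.5% higher and 10% lower. Of the 40 genes, 3 (7.5%) had a probe called higher, against 11.9% of all genes. A probe was called lower for 4 (10%), against 11.7%, with Acat1 in both counts. Without Hira CKO animal 1, Bdh1 was the only gene called higher. The animal means of the groups did not overlap at 7 of the 48 probes (14.6%), compared with 24.8% of all probes. The median difference was −0.01 log2 over the 48 probes and 0.01 over the array.

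**Figure D1:**
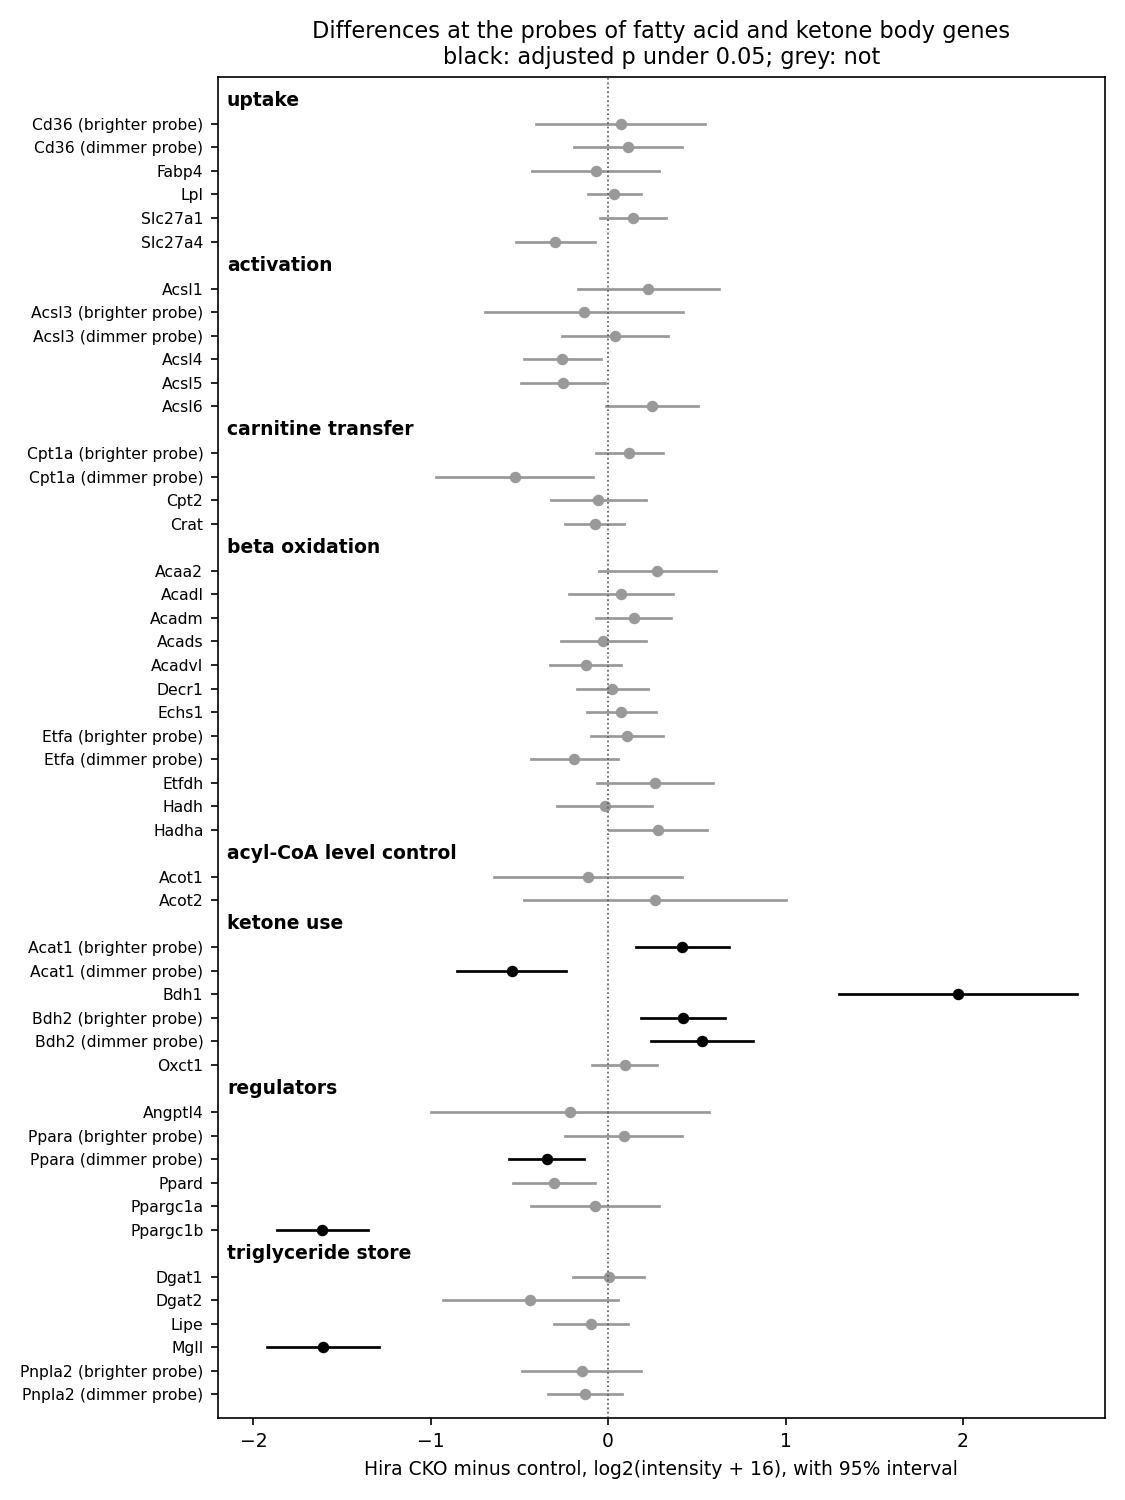
Difference between Hira CKO and control at each of the 48 probes, grouped by role, on the log2(intensity + 16) scale; points are limma estimates over 4 animals against 4, lines are 95% intervals, and black marks an adjusted p under 0.05. Bdh1 stands at 1.97 and Ppargc1b and Mgll at −1.61, while the 12 probes of beta oxidation genes lie between −0.19 and 0.28.

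Ketone use was the role with the most calls: 3 of its 4 genes passed, against 23.4% of all named genes. By probe, 5 of 6 were called, 4 higher and 1 lower, against 20.6% of all probes. The 3 genes include Acat1, whose probes were called in opposite directions, and only Bdh1 kept a call without Hira CKO animal 1. Bdh1 encodes the mitochondrial hydroxybutyrate dehydrogenase, which carries out the first step of ketone body oxidation. Its intensity was 635, 563, 848 and 605 in control animals 1 to 4 and 3927, 3882, 2277 and 1367 in Hira CKO animals 1 to 4. Every Hira CKO animal was above every control, but the spread within Hira CKO was wide, and animal 4 stood lowest. The difference was 1.97 log2 (SE 0.301, 95% interval 1.3 to 2.64, limma adjusted p 0.00171), a 3.93-fold rise with an interval of 2.47 to 6.25. The exact two-sided permutation p over the 70 assignments of the animals was 0.0286, the smallest this design can give. Only 10 of 26423 probes, Bdh1 included, differed as far in the same direction.

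The spread of Bdh1 among Hira CKO animals was larger than that between repeat arrays. The 3 arrays of Hira CKO animal 4 read 1285 to 1522, those of animal 3 read 2162 to 2416 and those of animal 2 read 3858 to 3929. Animal 1 was the least even, at 3202 to 4940. The arrays of the 4 control animals ran from 549 to 874, so that no array of either group reached the range of the other.

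**Figure D2:**
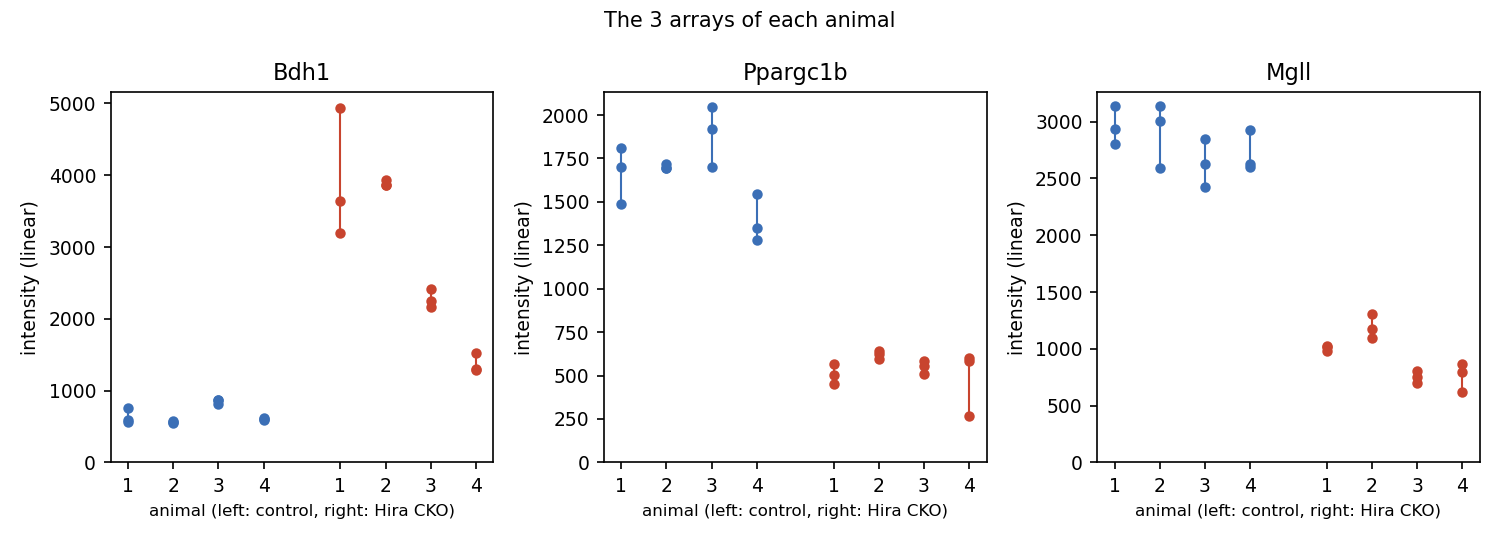
Linear intensity on each of the 3 arrays of an animal for Bdh1, Ppargc1b and Mgll, with control animals in blue and Hira CKO animals in red; a line joins the lowest and highest array. For Bdh1 all Hira CKO arrays, 1285 to 4940, lie above all control arrays; animals 3 and 4 lie below animals 1 and 2, whose ranges overlap, and 1 array of Hira CKO animal 4 reads 267 for Ppargc1b.

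Bdh2, a cytosolic enzyme of the same dehydrogenase family, was named for its activity on hydroxybutyrate. At its brighter probe the intensity was 542, 466, 443 and 505 in controls and 703, 668, 542 and 736 in Hira CKO, and the groups met at control animal 1 and Hira CKO animal 3. At the dimmer probe it was 138, 97.5, 88.9 and 114 against 190, 160, 138 and 171, with all Hira CKO animals above controls. The rises were 0.42 log2 (SE 0.107, limma adjusted p 0.0207) and 0.53 log2 (SE 0.130, limma adjusted p 0.0182). Both calls were lost without Hira CKO animal 1 (limma adjusted p up to 0.0615), and that of the brighter probe also without control animal 2, control animal 3 or Hira CKO animal 2.

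Acat1 encodes the mitochondrial thiolase that splits acetoacetyl-CoA, the last step of ketone use. Its 2 probes were called in opposite directions. The brighter probe read 8600, 6373, 7574 and 6867 in controls and 11578, 10195, 9008 and 8668 in Hira CKO, a difference of 0.42 log2 (SE 0.117, limma adjusted p 0.0317). The dimmer probe read 3024, 2459, 2347 and 2258 in controls and 1680, 2087, 1339 and 1829 in Hira CKO, a difference of −0.55 log2 (SE 0.139, limma adjusted p 0.0214). Neither probe overlapped between groups, and the mean of both differed by −0.063 log2, so that no direction can be given for the gene. A hyphenated form of its name is listed by RefSeq as an older name of Soat1, a cholesterol acyltransferase with its own probe on the array; which transcript each Acat1 probe reads was not tested. The call at the brighter probe was lost without control animal 2, 3 or 4 or Hira CKO animal 1 or 2, and the call at the dimmer probe without Hira CKO animal 1.

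Oxct1, the transferase that activates acetoacetate with coenzyme A and commits it to oxidation, was not called. It read 41143, 35930, 38084 and 39572 in controls and 42980, 43066, 42751 and 36408 in Hira CKO. The difference of 0.09 log2 had a 95% interval of −0.09 to 0.28, which lies apart from that of Bdh1. Slow fibres oxidise more ketone bodies than fast ones, and of 7 slow fibre markers 4 were measured, with 1 called higher and 0 called lower. That was Atp2a2, the slow calcium pump, at 1.27 log2 (limma adjusted p 0.00245) at its brightest probe, while its other 2 probes differed by 0.21 and 0.47 and were not called. Tnnt1, Tnni1 and Tnnc1, of the slow troponin complex, differed by 0.55, 0.07 and −0.15 log2, none called. The summed intensity of the 4 was 9664 to 13493 in controls, 12345, 12061 and 10909 in Hira CKO animals 1, 2 and 4, and 21709 in animal 3, the only animal above the control range. No marker was at 0. The part of fibre type in the Bdh1 difference was not tested.

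**Figure D3:**
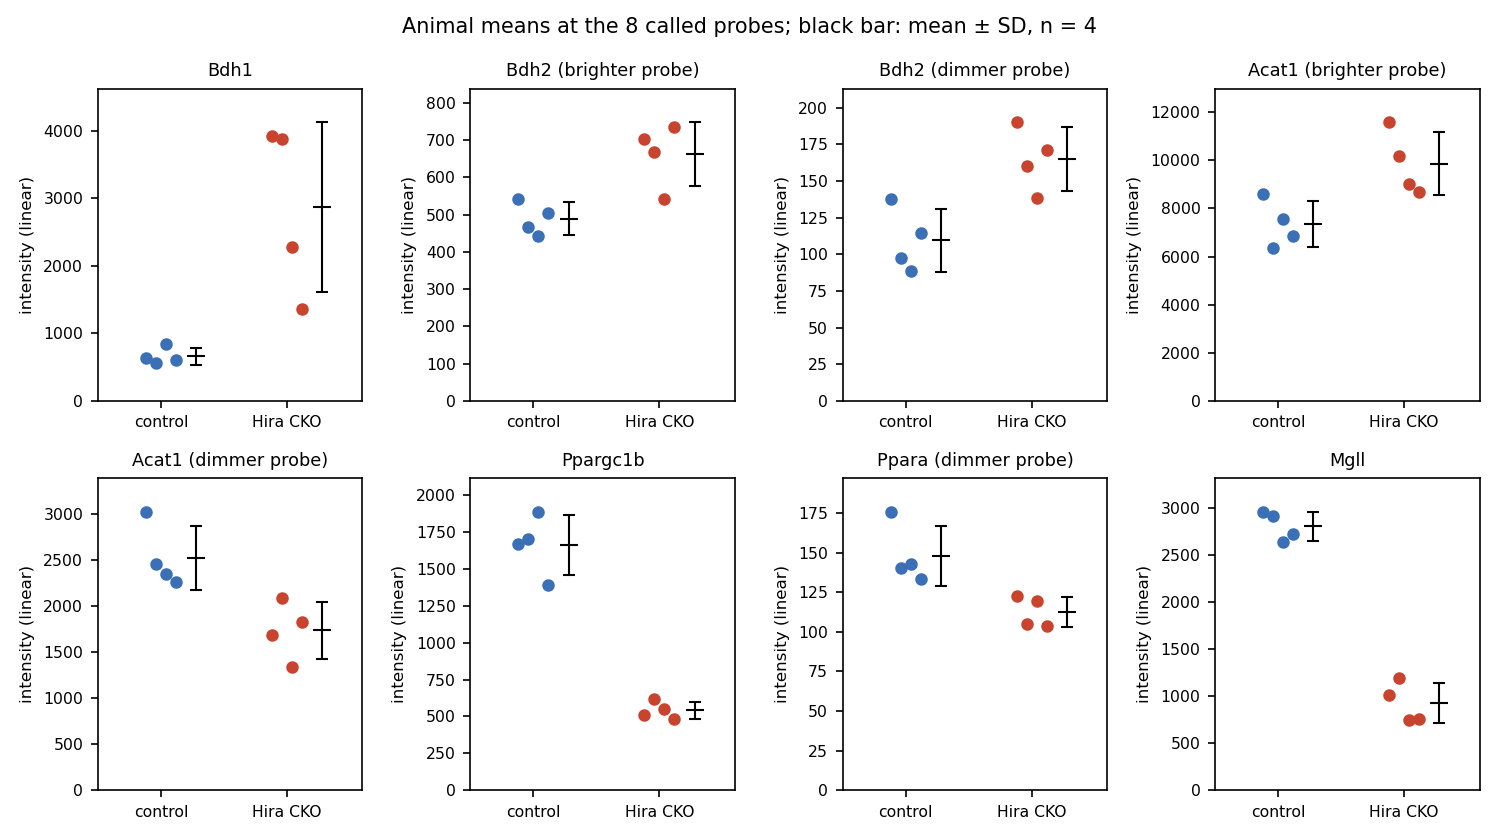
Linear intensity of each animal (mean of 3 arrays) at the 8 called probes, control in blue and Hira CKO in red, with the mean ± SD of 4 animals in black. Bdh1 rises from 663 ± 127 to 2863 ± 1259, Ppargc1b falls from 1663 ± 205 to 540 ± 58.9 and Mgll from 2804 ± 154 to 927 ± 212, while the 2 Acat1 probes part in direction.

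RefSeq gives Bdh1 more than 1 transcription start, and the array value cannot say which is used. Both promoter windows of Bdh1, from 250 bases before to 50 after the start (GRCm38.p6, plus strand), are shown because this gene had the largest change of the set. CpG sites, the cytosine-guanine pairs at which DNA can be methylated, are in capitals.
Bdh1 first start, chr16:31422047-31422346: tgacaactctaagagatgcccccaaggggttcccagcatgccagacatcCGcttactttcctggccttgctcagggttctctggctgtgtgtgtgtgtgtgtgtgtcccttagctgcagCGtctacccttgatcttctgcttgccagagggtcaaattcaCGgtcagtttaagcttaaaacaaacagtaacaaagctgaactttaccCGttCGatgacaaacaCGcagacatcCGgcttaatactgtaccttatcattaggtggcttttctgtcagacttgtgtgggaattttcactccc
Bdh1 second start, chr16:31428503-31428802: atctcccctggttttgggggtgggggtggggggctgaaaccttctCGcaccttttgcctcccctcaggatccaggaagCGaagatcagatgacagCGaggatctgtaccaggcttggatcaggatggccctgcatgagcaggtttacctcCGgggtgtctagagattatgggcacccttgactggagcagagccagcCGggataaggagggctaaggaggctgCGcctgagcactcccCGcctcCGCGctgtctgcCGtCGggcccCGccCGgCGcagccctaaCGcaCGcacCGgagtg
The first window held 7 CpG sites, the median of all 32851 RefSeq promoter windows, and the second held 17, the median of the 38 windows found for 30 of the 40 genes. The middle 50% of all windows held 3 to 20 CpG sites.

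The regulators held both a large fall and several genes that were not called. Ppargc1b encodes PGC-1 beta, which coactivates ERR and PPAR receptors on genes of mitochondrial fat oxidation. It read 1667, 1704, 1889 and 1391 in controls and 509, 619, 549 and 484 in Hira CKO, with a wide gap between the groups. The difference was −1.61 log2 (SE 0.116, 95% interval −1.87 to −1.35, limma adjusted p 2.36e-05, exact permutation p 0.0286), and 107 of 26423 probes (0.405%) fell at least as far. Ppargc1a, the paralog that encodes PGC-1 alpha, read 504, 667, 662 and 847 in controls and 641, 721, 672 and 498 in Hira CKO. Its difference was −0.08 log2, with an interval of −0.44 to 0.28, which lies apart from that of Ppargc1b.

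Ppara, the receptor that senses fatty acids, gave a different answer at each probe. The brighter probe read 1299 ± 211 in controls and 1386 ± 247 in Hira CKO (SD, n = 4), and the difference of 0.09 log2 was not called (limma adjusted p 0.717). The dimmer probe read 176, 140, 143 and 133 in controls and 122, 105, 119 and 103 in Hira CKO, a called difference of −0.35 log2 (SE 0.095, limma adjusted p 0.0288). Its call was lost without control animal 3, Hira CKO animal 2 or Hira CKO animal 4, in both array-level fits (limma adjusted p 0.108 and 0.123) and with the mean of both probes (0.453). Ppard, the receptor form abundant in muscle, was at 1447 ± 116 against 1171 ± 144 (SD, n = 4). That difference of −0.31 log2 stayed above the threshold (limma adjusted p 0.0638) and was called without control animal 1 or without Hira CKO animal 2. Angptl4, a secreted inhibitor of lipoprotein lipase and a PPAR target, ranged from 853 to 3154 in controls and from 1342 to 2302 in Hira CKO. With that spread its interval ran from −0.997 to 0.57 log2.

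Among genes that handle stored triglyceride, 1 of 5 was called. Mgll encodes the lipase that releases the last fatty acid from monoglycerides and also breaks down an endocannabinoid. Its intensity was 2957, 2910, 2634 and 2717 in controls and 1007, 1189, 750 and 760 in Hira CKO, with no overlap between the groups. The spread was small in controls (SD 0.08 log2) and larger in Hira CKO (SD 0.32). The difference was −1.61 log2 (SE 0.142, 95% interval −1.92 to −1.29, limma adjusted p 7.61e-05, exact permutation p 0.0286), which 109 of 26423 probes (0.413%) equalled or passed. The lipases that act before it were not called. Pnpla2, which takes the first fatty acid from triglyceride, differed by −0.15 and −0.13 log2 at its 2 probes, and Lipe, the hormone-sensitive lipase, by −0.10. Dgat1, which completes triglyceride synthesis, read 748 ± 55.3 against 753 ± 76.2 (SD, n = 4). Its paralog Dgat2 differed by −0.44 log2 (interval −0.93 to 0.05), with control animal 1 at 4093 and the other controls at 1810 to 2282.

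Adipocytes between the fibres express Mgll, Lipe, Dgat2, Lpl and Fabp4. Of 9 adipocyte markers 8 were measured, 0 were called, and Adipoq (adiponectin), which defines the cell type, differed by −0.21 log2 (limma adjusted p 0.658). The others differed in both directions. Cfd, Cidec, Plin1 and Lipe differed by −0.68, −0.68, −0.20 and −0.10 log2, and Retn, Lep and Pparg by 0.44, 0.17 and 0.06. The summed intensity of the 8 was 7656 to 20698 in controls and 5844 to 10919 in Hira CKO, with no marker at 0. Cfd and Adipoq were the brightest and weighed most in that sum. Lipe, Pparg and Cidec are on this list and also among the metabolic genes. The part of adipocytes in the Mgll difference was not tested.

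Mgll also has a pair of RefSeq starts, close together, and the window of the first is shown beside those of Bdh1, with CpG sites again in capitals.
Mgll first start, chr6:88724162-88724461 (GRCm38.p6, plus strand): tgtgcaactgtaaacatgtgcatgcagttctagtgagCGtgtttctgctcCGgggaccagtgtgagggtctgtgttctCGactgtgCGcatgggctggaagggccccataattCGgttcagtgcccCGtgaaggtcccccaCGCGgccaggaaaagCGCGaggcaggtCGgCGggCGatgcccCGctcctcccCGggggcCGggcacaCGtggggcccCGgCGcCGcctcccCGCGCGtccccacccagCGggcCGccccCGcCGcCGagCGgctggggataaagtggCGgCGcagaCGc
This window held 32 CpG sites, above the upper quartile of 20 over all windows.

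Fatty acid uptake showed no called gene among 5. Cd36, the fatty acid translocase of the surface membrane, differed by 0.07 and 0.11 log2 at its 2 probes. The intensity of the brighter probe ran from 2654 to 5095 in controls and from 3480 to 4944 in Hira CKO, and its repeat arrays differed more (SD 0.71 log2) than animals did (SD 0.38). Slc27a1, the transport protein FATP1 of muscle, differed by 0.14 log2 (interval −0.04 to 0.32), and Fabp4, a fatty acid carrier of adipocytes and capillary endothelium, by −0.07 (interval −0.43 to 0.29). Slc27a4, another transport protein, read 1131, 1065, 1262 and 979 in controls and 831, 1012, 908 and 839 in Hira CKO. Its difference of −0.30 log2 came nearest to the threshold among uncalled genes (limma adjusted p 0.0606), and it was called without control animal 4 or without Hira CKO animal 2. The probe of Lpl, the lipase that frees fatty acids from lipoproteins, stayed between 59.5 and 69.0 in all 8 animals, under the array median. Without detection calls in the deposited table, that probe gives no usable estimate.

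Capillary endothelium also carries Cd36, Fabp4 and bound Lpl. Of 9 endothelial markers, all measured, 4 (44.4%) were called lower and 0 higher, against 10.2% of all genes called lower at the brightest probe. Egfl7 fell by 0.69, Kdr by 0.60, Gpihbp1 by 0.52 and Pecam1 by 0.36 log2 (limma adjusted p 0.00723, 0.00351, 0.0484 and 0.0446). The uncalled Cdh5, Tie1, Cldn5 and Vwf differed by −0.18, −0.16, −0.16 and −0.22 log2, and the uncalled Tek by 0.11. The Gpihbp1 call was lost in several other settings, and the other 2 probes of Pecam1 differed by −0.21 and −0.22 and were not called. The list's summed intensity was 66583 to 82742 in controls and 49259 to 56737 in Hira CKO, without overlap, and no marker was at 0. Egfl7 (mean 30882 in controls and 19234 in Hira CKO) and Gpihbp1 (13280 and 9307) were the brightest and weighed most in that sum. Fabp4 and Cd36 were not called beside these marker differences. The part of endothelium in the differences of Mgll and Ppargc1b was not tested.

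Acyl-CoA synthetases, which join fatty acids to coenzyme A, gave no called gene among 5. Acsl1, the main form of muscle mitochondria, read 17451, 10330, 11644 and 14689 in controls and 18160, 17294, 15706 and 11987 in Hira CKO, a difference of 0.23 log2 with an interval of −0.17 to 0.62. Acsl4, which favours arachidonic acid, and Acsl5 differed by −0.26 log2 each (limma adjusted p 0.0900 and 0.116), with intervals of −0.48 to −0.04 and −0.49 to −0.02. Acsl4 was called lower without control animal 3, and Acsl5 without Hira CKO animal 4. Acsl6 differed by 0.25 log2 (limma adjusted p 0.165), and Acsl3 by −0.13 and 0.04 at its 2 probes.

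The promoter windows were searched on both strands for letters that nuclear receptors are known to bind. The PPAR element DR1, a pair of AGGTCA copies 1 base apart, was in 0 of the 38 windows of these genes and in 0.0396% of all windows. A single AGGTCA, which lies inside the other motifs searched, was in 6 of 38 (15.8%) and in 16.3% of all windows. The ERR element TCAAGGTCA was in 1 of 38 (2.63%) and in 0.423% of all windows. That window belongs to Acsl6, which was not called, and is shown with all AGGTCA matches and the longer element, here read on the opposite strand, in capitals.
Acsl6, chr11:54303574-54303873 (GRCm38.p6, plus strand): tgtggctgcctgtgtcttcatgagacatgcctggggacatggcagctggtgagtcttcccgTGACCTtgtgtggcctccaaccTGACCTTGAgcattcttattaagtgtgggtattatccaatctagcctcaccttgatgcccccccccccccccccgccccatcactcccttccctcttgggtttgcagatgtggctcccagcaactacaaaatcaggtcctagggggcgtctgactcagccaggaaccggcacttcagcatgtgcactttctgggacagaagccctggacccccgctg
No motif was found in the 6 windows of the 4 called genes that had any, which says only that these letters are absent there.

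Carnitine transfer was read at 3 genes, and none was called. Cpt1a makes acylcarnitine at the outer mitochondrial membrane. Its brighter probe differed by 0.12 log2 (limma adjusted p 0.346) and its dimmer by −0.53 (interval −0.97 to −0.08, limma adjusted p 0.0886). At the dimmer probe the intensity was 937, 492, 665 and 894 in controls and 650, 470, 429 and 473 in Hira CKO, and control animal 2 lay within the Hira CKO range. That probe was called lower without control animal 2. Cpt2, which turns acylcarnitine back into acyl-CoA inside, differed by −0.05 log2, and Crat, the acetyltransferase that buffers acetyl-CoA, by −0.08.

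None of the 11 genes of beta oxidation was called at any of 12 probes. The differences ran from −0.19 to 0.28 log2, and 8 of the 12 were above 0. The 95% intervals lay within 0.5 log2 of no change at 9 of the 12 probes. Among the acyl-CoA dehydrogenases, which open each cycle for a given chain length, Acadvl differed by −0.13 log2, Acadl by 0.07, Acadm by 0.14 and Acads by −0.03. Hadha, the trifunctional protein subunit that carries long chains through the next steps, read 10105, 14026, 10038 and 12275 in controls and 14784, 13970, 14880 and 11928 in Hira CKO. Its difference of 0.28 log2 was the furthest from 0 in this role and was not called (interval 0.003 to 0.56, limma adjusted p 0.138). Acaa2, the thiolase of the last step, differed by 0.28 log2 (interval −0.05 to 0.61), and Echs1 and Hadh, of the middle steps, by 0.07 and −0.02. Decr1, needed for unsaturated chains, differed by 0.02 log2.

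The electrons of the first step leave through ETF. Etfdh, which hands them to ubiquinone, differed by 0.26 log2 (limma adjusted p 0.234) and was called higher without Hira CKO animal 4, where it read 18682 against 23391 to 31242 in the other Hira CKO animals. The 2 probes of Etfa, a subunit of ETF, differed by 0.11 and −0.19 log2, neither called. Eci1 and Eci2, isomerases for unsaturated chains, were found under the older symbols Dci and Peci. They differed by −0.08 and 0.02 log2 (limma adjusted p 0.630 and 0.939).

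Thioesterases set the level of acyl-CoA by cutting it back to free fatty acid. Acot2, the mitochondrial form, ranged from 954 to 2997 in controls and from 1287 to 2715 in Hira CKO, and Acot1, the cytosolic form, from 71.2 to 192 and from 81.7 to 121. Neither was called, and their intervals were wide (−0.47 to 1.005 log2 for Acot2 and −0.64 to 0.41 for Acot1). The SD between animals of a group was 0.60 log2 for Acot2 and 0.42 for Acot1. The sequences of these neighbours are closely alike but were not compared here. Whether a probe reads both genes was not tested, and their values remain uncertain. Control animal 1 was the highest control at both.

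Single animals stood high or low across many of these genes at once. Control animal 1 was the highest of its group at 32 of the 48 probes (66.7%), compared with 29.7% of all probes on the array. Hira CKO animal 4 was the lowest of its group at 33 of 48 (68.8%), compared with 32.8% of all probes, and at all 12 probes of beta oxidation genes. The median deviation from the group mean over the 48 probes was 0.12 log2 for control animal 1 and −0.17 for Hira CKO animal 4, and under 0.01 in size for each over all probes. Other animals stood apart too. Hira CKO animal 2 was the highest of its group at 21 of 48 probes (43.8%, against 17.9% of all probes; median deviation 0.12), and control animal 2 the lowest at 22 (45.8%, against 24.1%; median deviation −0.08). The probes share arrays and animals and are not independent, so these shares are a description. The median SD between animals of a group was 0.19 log2 over the 48 probes and 0.14 over the array.

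**Figure D4:**
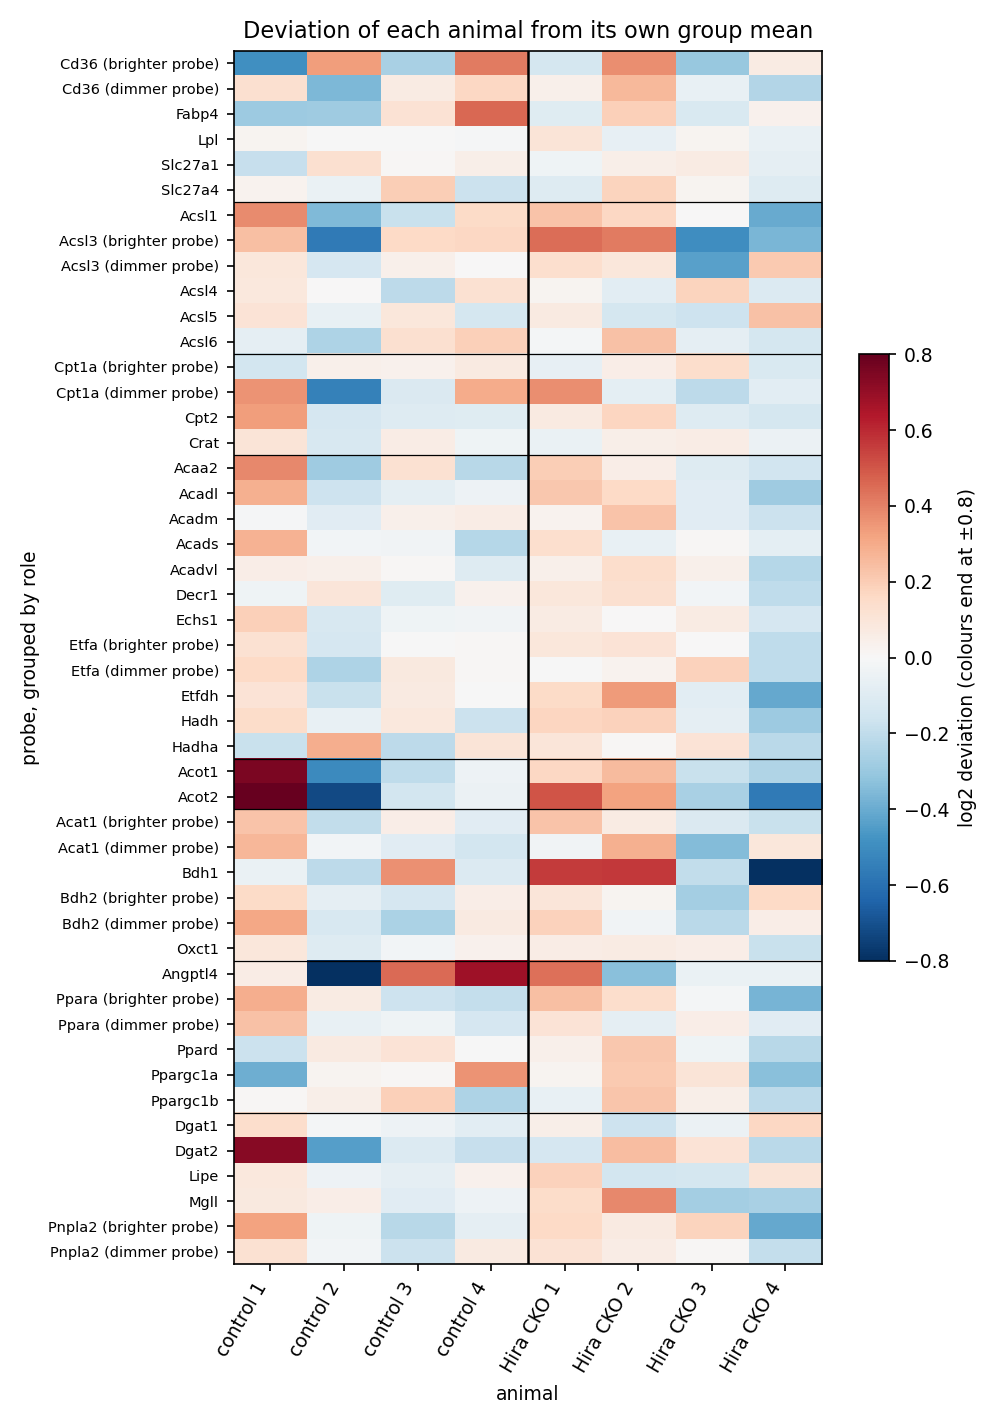
Deviation of each animal from the mean of its own group at the 48 probes, in log2 units, with probes grouped by role in the order uptake, activation, carnitine transfer, beta oxidation, acyl-CoA level control, ketone use, regulators and triglyceride store. Red is above and blue below the group mean; control animal 1 is the highest of its group at 32 probes and Hira CKO animal 4 the lowest at 33.

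Further genes of lipid and ketone metabolism were taken from 5 lists, each gene at its brightest probe. Of 97 measured genes 13 were called higher and 11 lower (24.7%), against 21.2% of all genes at the brightest probe, 11% higher and 10.2% lower. Up to 5 called genes of each list are named. The uncalled Slc16a1, Plin5, G0s2, Pdk4 and Ucp3 were picked after their values were seen. Ketone synthesis and transport had 1 gene higher and 1 lower of 10 measured (20%). Acss1, which makes acetyl-CoA from acetate in mitochondria, rose by 0.90 log2 from 4283 ± 994 to 7967 ± 1736 (SD, n = 4, limma adjusted p 0.00908). Slc16a3, the lactate exporter of fast fibres, fell by 0.78 log2 from 13188 ± 901 to 7886 ± 1878 (limma adjusted p 0.00492). Slc16a1, the carrier that admits ketone bodies, differed by −0.02 log2 and was not called.

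Of 13 measured genes of oxidation in peroxisomes, where very long and branched chains are shortened, 4 rose and 1 fell. The share called was 38.5%, against 21.2% of all genes at the brightest probe. Amacr, a racemase for branched chains, rose by 1.15 log2 (limma adjusted p 1.10e-04) at its brighter probe, and its other probe differed by −0.05 and was not called. At the brighter probe repeat arrays differed more (SD 0.59 log2) than animals did (SD 0.17). Acox2, an oxidase of branched chains, rose by 1.13 log2 from a low 74.8 ± 9.83 to 189 ± 67.7 (SD, n = 4, limma adjusted p 0.00269). Pex5, the import receptor, rose by 0.53 and Ehhadh, the bifunctional enzyme, by 0.39. Abcd2, an importer of very long chains, fell by 0.99 log2 (limma adjusted p 0.00266). The call of Pex5 was lost without control animal 2, 3 or 4 or Hira CKO animal 2.

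On the list of further mitochondrial oxidation, 4 of 19 rose and 3 fell (36.8% called, against 21.2% of all genes). Acad11 and Acad12, dehydrogenases outside the classic set, fell by 0.74 and 0.49 log2. Pcca, a subunit of propionyl-CoA carboxylase, rose by 0.56, and Decr2, the peroxisomal counterpart of Decr1, fell by 0.45. Etfbkmt, which methylates ETF, rose by 0.37. Calls were lost for Acad12 without Hira CKO animal 2 or 4, for Pcca without Hira CKO animal 1, 2 or 3, for Etfbkmt in 6 of 8 fits that left out an animal (all but control animal 1 and Hira CKO animal 4), and for Decr2 in 7 of 8 (all but control animal 1) and with the median of the 3 arrays. Acad11 kept its call in all 8.

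Lipid droplet and lipoprotein genes had 1 called higher and 3 lower of 23 (17.4%, against 21.2% of all genes). Plin2, a coat protein of droplets, fell by 0.56 log2, Gpihbp1, which holds lipoprotein lipase on capillaries, by 0.52, and Lmf1, which helps that lipase fold, by 0.49. Fitm1, which helps droplets form, rose by 0.39. Plin5 and G0s2, at −0.74 and 0.75 log2, were not called. The call of Plin2 was lost without Hira CKO animal 2 or 3. The Gpihbp1 call held only without control animal 2 or Hira CKO animal 3 when 1 animal at a time was left out, and it was lost with a pseudocount of 1 or 50, cyclic loess or the median of the 3 arrays (limma adjusted p 0.0503 to 0.0542).

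The list of PPAR and ERR targets and regulators had 3 higher and 3 lower of 32 (18.8%, against 21.2% of all genes). It also holds subunits of the energy sensor AMPK and genes of fat synthesis, and none of its nuclear receptor genes was called. Mlxipl, the carbohydrate response factor ChREBP, fell by 0.62 log2 and Acaca, a carboxylase that makes malonyl-CoA, by 0.48 (limma adjusted p 0.00913 and 0.00847). Subunits of AMPK moved both ways. The beta subunit gene Prkab1 rose by 0.46 and its muscle counterpart Prkab2 fell by 0.37, while the catalytic subunit gene Prkaa2 rose by 0.34. Pdk4, which restrains pyruvate use, and Ucp3, a mitochondrial carrier, differed by −0.37 and −0.45 log2 and were not called. The call of Prkaa2 was lost without Hira CKO animal 2, and that of Prkab2 without control animal 3 or 4 or Hira CKO animal 1, 3 or 4.

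**Figure D5:**
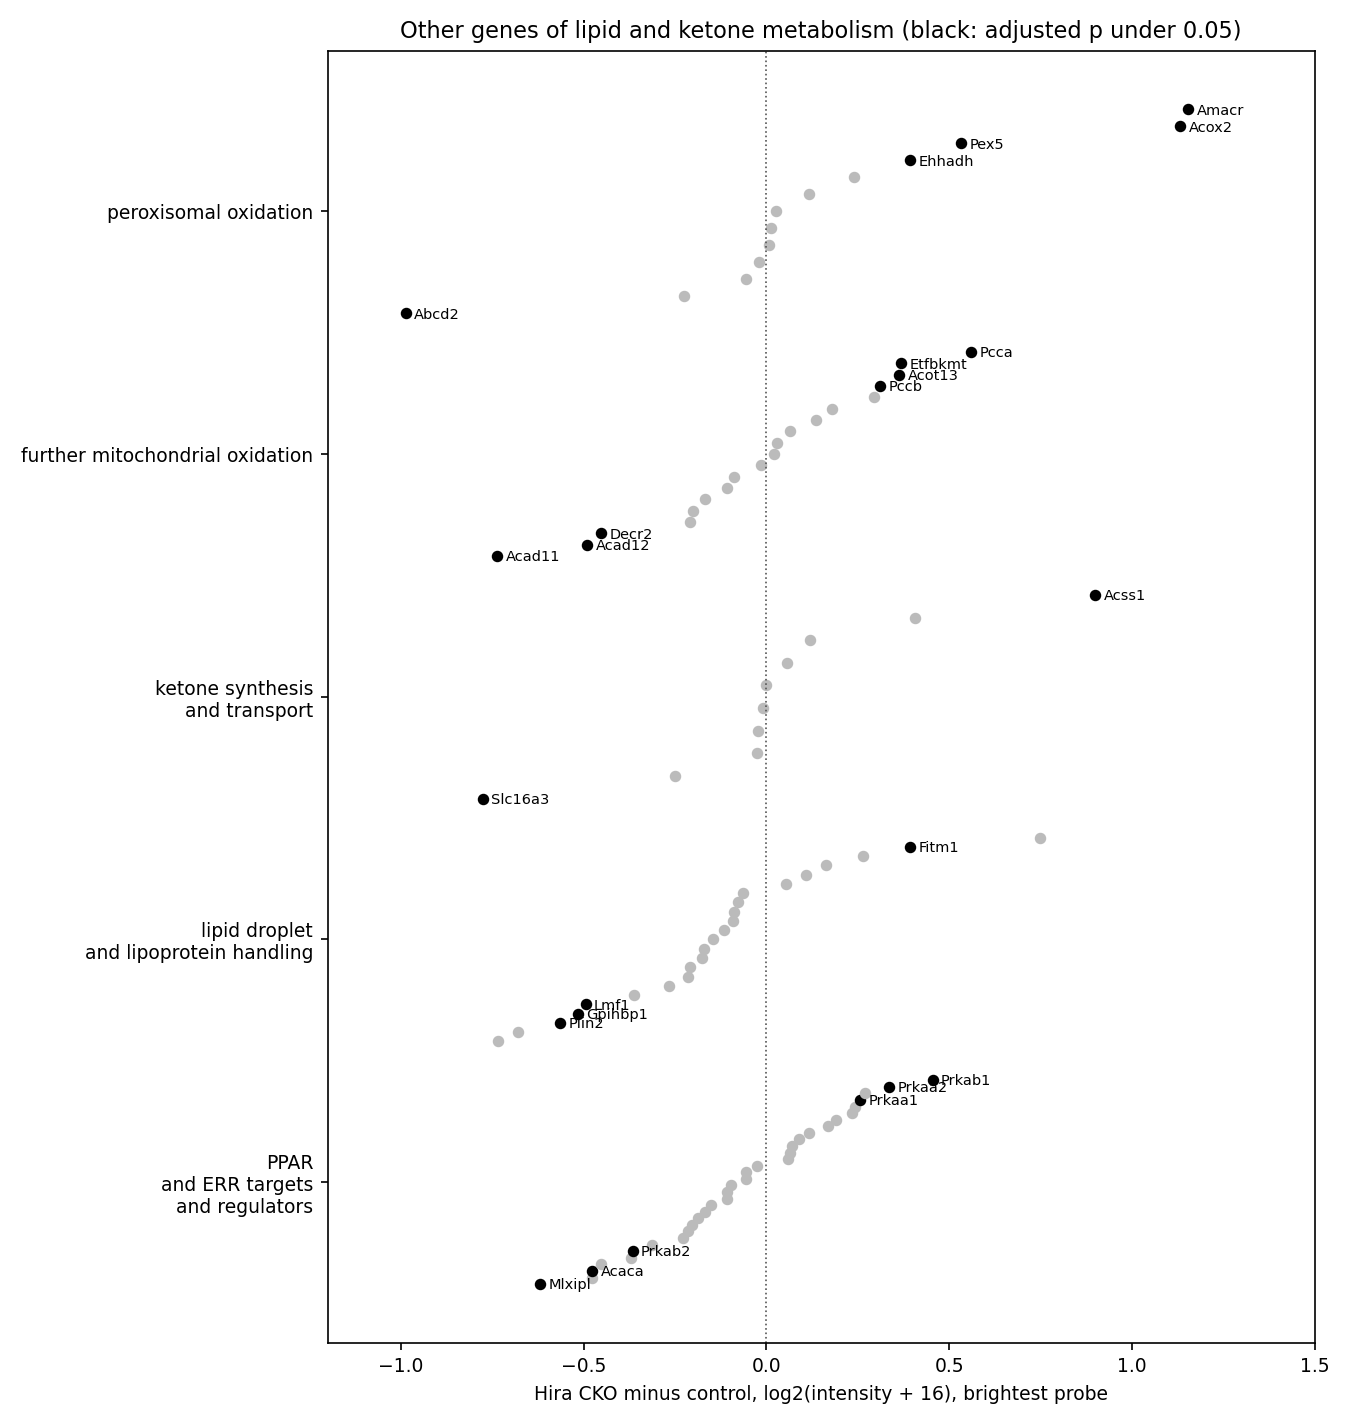
Difference between Hira CKO and control, on the log2(intensity + 16) scale, at the brightest probe of each gene of the 5 further lists; black points have an adjusted p under 0.05 and are named. Calls lie on both sides of 0, from −0.99 (Abcd2) to 1.15 (Amacr).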

How the data were processed

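RNA extracted with Trizol from frozen tibialis anterior (5 micrograms, Cy5, per the labels' protocols) was measured on 24 arrays. The deposited values are intensities on a linear scale; the authors' array medians were nearly equal and 50 values were at or below 0. Software, scanner, detection calls, sex and array batches are not known from the labels or files, so the part of a batch was not tested. The number of animals, 4 per group, limits the precision. Platform annotation named 20377 probes with 1 symbol, 0 with several and 6046 with none; symbols were updated with RefSeq (GRCm38.p6): 18213 current, 2126 synonyms, 38 kept.

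Values below 0 were set to 0, 16 was added and log2 taken; fold changes of dim probes are understated. Arrays of an animal were averaged, since the design text gives triplicate hybridisation per animal (r of 2 arrays at most 0.997), and p-values measure the spread between animals. Groups were compared with limma 3.58.1 (R 4.3.3), Benjamini-Hochberg over 26423 probes. No probe was filtered. The fit was tested on simulated data. Proteins were not used here. Genes with several probes were counted as called if any was, and fixed lists were read at the brightest probe.

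The 48 genes and the lists were chosen with earlier results of these data known. Every called gene of the 48 was named with its animals' values, with the brightest and the furthest changed of each role, and up to 5 called genes per further list. Lists were muscle fibre, adipocyte, endothelial, slow fibre, macrophage, fibroblast and smooth muscle markers and 5 metabolic lists. Promoters are from RefSeq. Alternatives were pseudocounts, filters, normalizations, treatments of arrays, a replicate block, other variance models, thresholds, probe means and each animal left out.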

Additional observations from a re-analysis of the deposited data

Results flagged for a closer look

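Of 96 groups of 4 animals (48 probes in control and in Hira CKO), 3 held an animal whose gap to the next, as a share of the group's whole range, passed Dixon's critical value, which chance alone would give in about 1 of 20 groups. Acsl3 in control, at its brighter probe, had animal 2 at 339 against 573 to 606 in the others (gap 0.905 of the range). Cpt2 in control had animal 1 at 32350 against 23382 to 24063 (0.916). Oxct1 in Hira CKO had animal 4 at 36408 against 42751 to 43066 (0.955). The differences of these genes between groups were not called with all 8 animals, nor in any of the 8 fits that left out an animal.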

How the results depend on the processing

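The called differences of Bdh1, Ppargc1b and Mgll kept their direction and their call in all 15 other settings and all 8 fits that left out an animal; Bdh1 ranged from 1.78 to 2.28 log2, Ppargc1b from −1.69 to −1.52 and Mgll from −1.74 to −1.48. Of the 48-gene set, the genes called higher were 1 to 4 over the fits that left out an animal and 1 at a threshold of 0.01. The genes called lower were 3 to 5 over those fits, 7 with the median of the 3 arrays, 7 in array-level fits with or without the array number as a block (without Ppara), 2 with the mean of a gene's probes, 2 at a threshold of 0.01, 8 at 0.1 and 2 at the brightest probe alone, which was tried after seeing the data. The median of the 3 arrays added Acsl5, Ppard and Slc27a4 to those called lower. Both array-level fits added Acsl4, Cpt1a, Dgat2 and Ppard. With the mean of its probes Acat1 differed by −0.063 log2, against 0.42 at its brighter probe. The cause of these shifts was not tested. Of the further lists 7 to 14 were called higher and 7 to 11 lower without an animal (7 of each without Hira CKO animal 2), 5 and 6 at 0.01, and 17 higher and 17 lower in both array-level fits. Over all probes, 1841 to 2634 were called higher without an animal (1841 without Hira CKO animal 1), against 2783, and 1113 higher and 1296 lower at 0.01. Deviations of same-numbered animals of the 2 groups from their group means correlated at r = 0.30, 0.09, −0.06 and 0.07. Differently numbered animals were not compared, so these values cannot settle whether the numbers pair the animals. With the animal number as a replicate block, 3 genes of the set were called higher and 5 lower, Cpt1a among the 5. Over all probes the block gave 2505 higher and 2420 lower. Among named genes of the further lists Etfbkmt lost its call with the block. Dim probes, such as that of Lpl, limit what can be seen.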

Other observations

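Bdh1 lies on chromosome 16, the chromosome of Hira, with 246 annotated RefSeq genes between them. Of the 10 annotated genes on each side of Bdh1, 4 had a probe: 1 was called higher, Dlg1 by 0.26 log2 (limma adjusted p 0.0374), and Apod, Ppp1r2 and Acap2 differed by 0.43, 0.27 and 0.11 and were not called.

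Markers of other cells in the muscle gave these values at the brightest probe, where 11% of all genes were called higher and 10.2% lower. Of 7 measured macrophage markers 1 rose (Itgam, 0.40 log2) and 1 fell (Cx3cr1, by 1.61), and their summed intensity was 5347 to 8284 in controls and 5512 to 7432 in Hira CKO. Of 6 fibroblast markers 1 fell (Pi16, by 0.43), with sums of 129661 to 161024 and 123769 to 160569. Of 5 measured smooth muscle and pericyte markers 1 fell (Rgs5, by 1.11), with sums of 22684 to 33068 and 19174 to 25764. The uncalled macrophage markers ran from −0.43 (Adgre1) to 0.15 log2 (Mrc1) and the uncalled fibroblast markers from −0.16 (Pdgfra) to 0.25 (Col1a1). Uncalled smooth muscle and pericyte markers ran from −0.32 (Acta2) to 0.10 log2 (Pdgfrb). No marker of these lists was at 0.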
